A study of Mus musculus with 4 samples.

Results

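A set of 47 developmental transcription factor genes that Polycomb complexes hold silent in many tissues was read on expression arrays of mouse colon epithelium. The set is a list of named PAX, IRX, LHX, DLX, NKX, TBX and DMRT family genes, with Six2, Six3, Prdm14 and Mycn. It does not hold every gene of all these families, and it was chosen with earlier results of these data known. On the platform annotation 46 of them had at least 1 probe set, which gave 86 of the 45037 probe sets and 46 of the 18193 genes measured. Pax2 was not analysed here. All mice were C57BL/6 and 6 to 8 weeks old, sex-matched according to the labels, and all received azoxymethane at 10 mg/kg, followed after 5 days by 3.5% dextran sulfate sodium in the drinking water for 5 days. This treatment, a carcinogen and then a chemical colitis, is a model of colitis-associated colorectal cancer, and wild-type mice received it too, so no untreated colon was compared. On day 12 intestinal epithelial cells were released from the opened colon with EDTA. The 4 genotypes were wild type (WT), Bmi1ΔIEC, Mel18ΔIEC (Mel18 is the protein of the gene Pcgf2) and the double knockout carrying both, with 1 array for each. What drives the deletion in the epithelium, and how many mice an array stands for, are not given in the sources used here.

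Bmi1 and Mel18 are related RING-finger proteins of Polycomb repressive complex 1, which places ubiquitin on histone H2A and compacts chromatin. Together with Polycomb repressive complex 2, which methylates histone H3 at lysine 27, it is known for keeping lineage-specifying transcription factor genes off in cells of other lineages. The factors described here bind DNA through paired domains, homeodomains, T-boxes, DM domains, zinc fingers or, in Mycn, a basic helix-loop-helix domain, and each is normally active in a few embryonic or adult tissues. The question put to them was which of them gave signal in colon epithelium, and which of those differed between arrays labelled with loss of 1 or both proteins.

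Values are RMA intensities, and a difference is a difference of log2 intensities. The floor is the median of all probe-set values on the 4 arrays, 33.4 intensity units, taken here as the limit under which a value is not separated from background. Each gene is given by its brightest probe set (mean over the arrays), and was called higher or lower when 2 arrays differed at least 2-fold and the higher value reached the floor. With 1 array per genotype no difference has a replicate check or a test, the number of arrays limits the precision, and the share of all 18193 genes called the same way is given as background. Neither targeted gene checks its label: the 2 Bmi1 probe sets were brighter on the Bmi1ΔIEC and DKO arrays (334 and 432 for the first, 116 in wild type), and Pcgf2 stayed between 30.2 and 39.8 with its brighter probe set. The arrays are therefore called by their labels, WT as wild type and the double knockout as DKO. Xist, which coats the inactive X chromosome, read 611 on the DKO array and 122 or less elsewhere, and Eif2s3y from the Y chromosome read between 198 and 282 on all 4. The part of sex in the differences below was not tested. The epithelial markers were bright throughout (Epcam between 9820 and 10900, Krt8 between 17500 and 19600).

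Most of the developmental factors gave no signal above the floor on any array. Of the 46 genes, 35 lay under the floor on all 4 arrays and 11 (23.9%) reached it on at least 1, whereas 66.8% of all genes did. The 11 were Pax3, Pax6, Pax8, Pax9, Irx2, Nkx2-3, Dmrt2, Six2, Six3, Prdm14 and Mycn. By array, 5 of the 46 reached the floor in wild type, 6 on the Bmi1ΔIEC array, 8 on the Mel18ΔIEC array and 9 on the DKO array. The share of all genes on each single array was not counted, so these counts have no background beside them. The array medians were 34.2, 32.1, 32.9 and 34.1 in the same order. Of the 8 on the Mel18ΔIEC array, Six2 (34.1) and Pax6 (34.8) lay just above the floor. No member of the LHX, DLX or TBX families reached it. Among the members, 4 of 7 PAX genes, 1 of 6 IRX genes, 1 of 4 NKX genes, 1 of 3 DMRT genes and both Six2 and Six3 reached it. These are not counts of whole families. Outside the set, Pax4 (47.4 to 55.8), Nkx2-4 (36.1 to 49.4) and Nkx2-6 (101 to 114) reached the floor on every array. Dmrta2 (71.6) reached it on the DKO array.

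**Figure D1:**
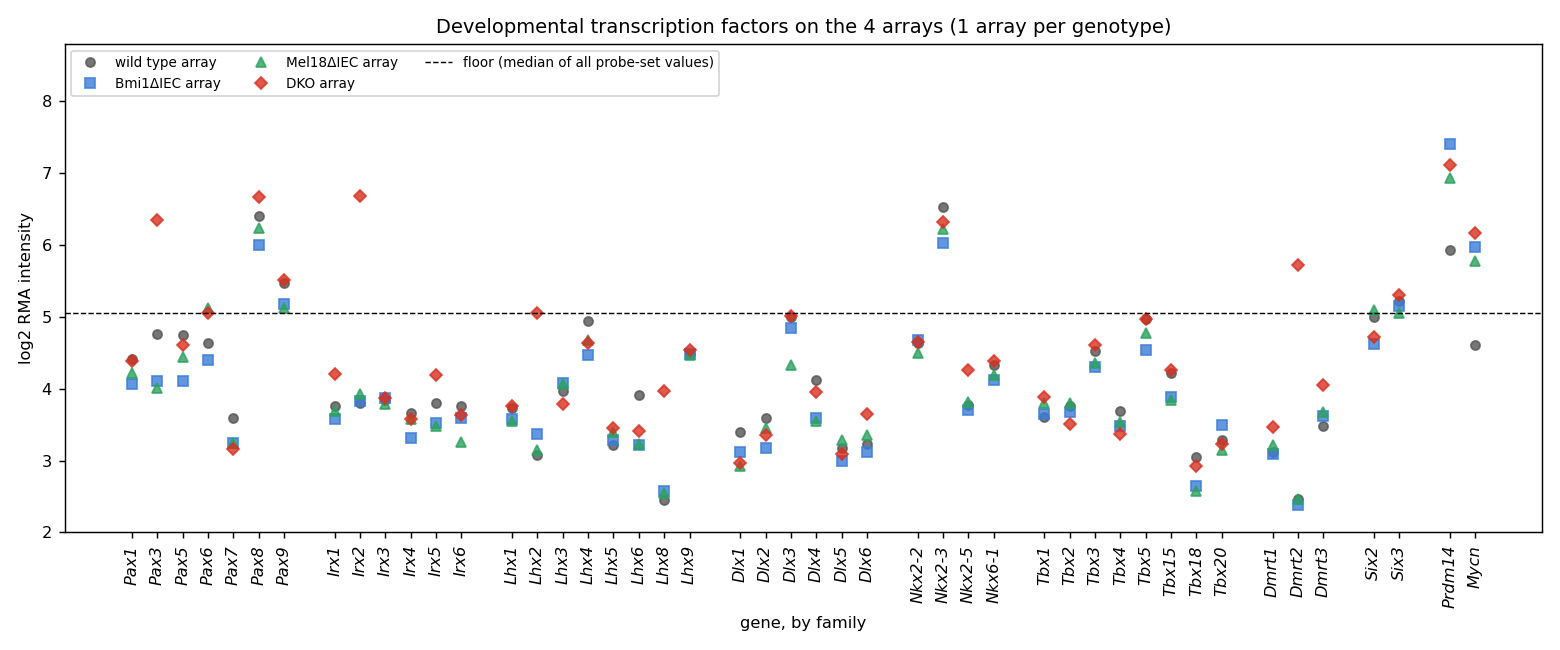
Log2 RMA intensity (vertical axis) of the 46 genes, grouped by family along the horizontal axis, with 1 marker per array and the floor as a dashed line. Pax3, Irx2 and Dmrt2 lie above the floor on the DKO array alone, and Prdm14 and Mycn lie lowest on the wild-type array.

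A group of 3 factors was above the floor on the DKO array alone. Irx2, an Iroquois homeodomain factor of limb, heart and neural patterning, read 13.9 in wild type, 14.2 on the Bmi1ΔIEC array, 15.2 on the Mel18ΔIEC array and 103 on the DKO array. Its 3 lower values lay close together and far under the floor. Dmrt2, a DM-domain factor of the dermomyotome, the part of the somite that forms dermis and muscle, read 5.51, 5.21, 5.50 and 52.9 in the same order. Pax3, a paired-domain factor of neural crest, melanocytes and muscle precursors, read 27.1, 17.2, 16.2 and 81.5.

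Over wild type these were 7.42-fold (Irx2), 9.59-fold (Dmrt2) and 3.01-fold (Pax3) on the DKO array, or 2.89, 3.26 and 1.59 on the log2 scale. Because the other arrays lay under the floor these folds include background signal and are not exact. Set against the floor itself, the DKO values were 3.09-fold (Irx2), 1.58-fold (Dmrt2) and 2.44-fold (Pax3). The differences from the Bmi1ΔIEC array were 2.86, 3.34 and 2.25, and from the Mel18ΔIEC array 2.76, 3.26 and 2.33, on the log2 scale. All 3 genes lay at least 2-fold above each of the other arrays, which 0.665% of all genes did on this array. With the floor raised to percentile 75 of all values, 136 units, none of the 3 was called.

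Pax3 was the only one of these with several probe sets, and all were highest on the DKO array. The second read 21.7, 15.3, 15.5 and 35.9 on the wild-type, Bmi1ΔIEC, Mel18ΔIEC and DKO arrays, and the third read 7.07, 8.42, 8.34 and 56.9. Each of the 3 probe sets reached the floor on the DKO array alone, with differences from wild type of 1.59, 0.73 and 3.01. The second thus stayed under the 2-fold rule against wild type and passed it against the single-knockout arrays, at 1.23 and 1.21. Irx2 and Dmrt2 rest on 1 probe set each.

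**Figure D2:**
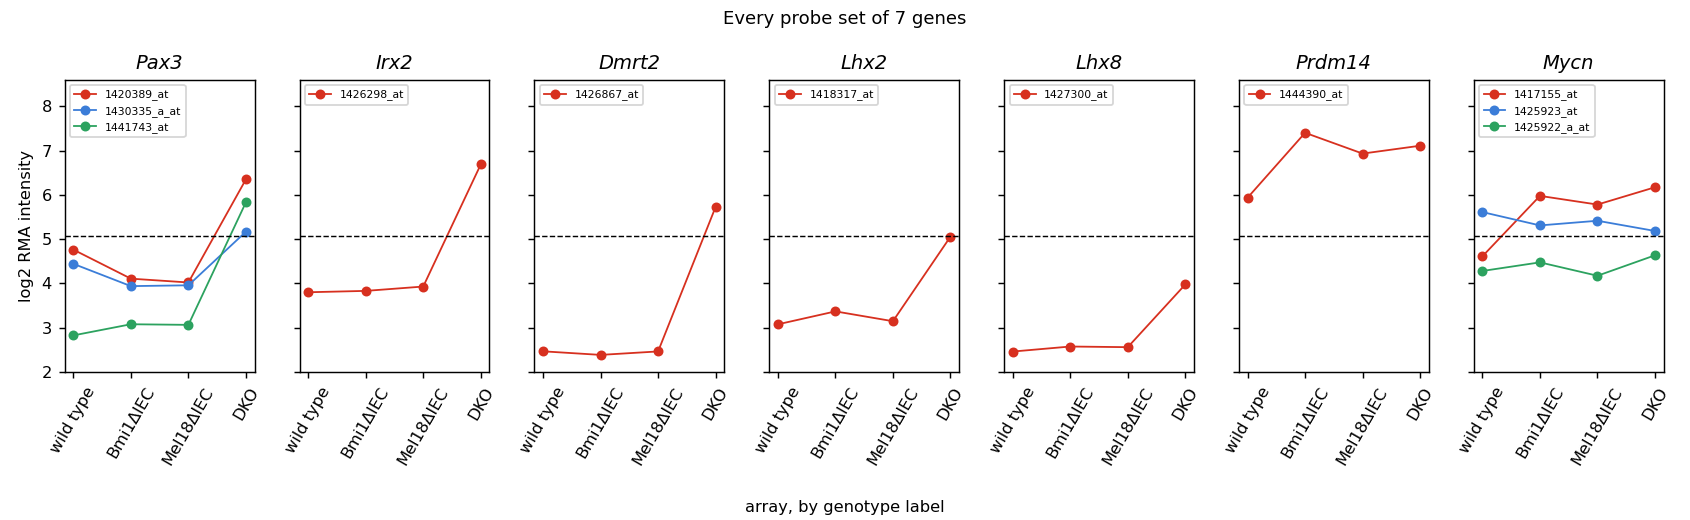
Log2 RMA intensity (vertical axis) of every probe set of 7 genes on the 4 arrays (horizontal axis), with the floor dashed and a line joining the values of 1 probe set. The 3 Pax3 probe sets are highest on the DKO array, and of the 3 Mycn probe sets 1 lies at least 2-fold above wild type on the knockout arrays.

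Lhx2 and Lhx8, LIM-homeodomain factors of forebrain, eye and hair follicle and of basal forebrain and tooth, were also highest on the DKO array but did not reach the floor. Lhx2 read 8.41 in wild type, 10.3 on the Bmi1ΔIEC array, 8.83 on the Mel18ΔIEC array and 33.2 on the DKO array, which is just short of 33.4. It missed the call for this reason alone, with a difference from wild type of 1.98, and it was called once each array was centred on its genes above the floor. Lhx8 read 5.49, 5.94, 5.88 and 15.7, a difference of 1.52 from wild type, all under the floor. Of the 35 members under the floor on all arrays these 2 (5.71%) were at least 2-fold above wild type on the DKO array, against 0.48% of the 6039 genes under the floor on all arrays.

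Prdm14 and Mycn were higher than wild type on all 3 knockout arrays. Prdm14, a PR-domain factor of primordial germ cells and naive pluripotency, read 61.1 in wild type, 169 on the Bmi1ΔIEC array, 122 on the Mel18ΔIEC array and 138 on the DKO array. All 4 values were above the floor, and wild type was the lowest. The differences from wild type were 1.46, 1.00 and 1.18, and the second lies at the edge of the rule with a fold of 2.01. With each array centred on its genes above the floor it was 0.84 and no longer passed. Prdm14 rests on 1 probe set.

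Mycn, a basic helix-loop-helix factor that drives growth of embryonic progenitors, was higher by its brightest probe set and not by the others. That probe set read 24.4 in wild type, 62.9 on the Bmi1ΔIEC array, 54.9 on the Mel18ΔIEC array and 72.0 on the DKO array, with differences from wild type of 1.37, 1.17 and 1.56. The second, above the floor on every array, read 48.8, 39.6, 42.6 and 36.3 and was thus highest in wild type, and the third read 19.4, 22.2, 18.0 and 24.8, all under the floor. The mean over the 3 probe sets gave differences of 0.42, 0.29 and 0.50, none past the rule. The direction for Mycn is therefore that of 1 probe set.

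In counts, 2 of the 46 members were called higher on the Bmi1ΔIEC array than in wild type (3.78% of all genes) and 2 on the Mel18ΔIEC array (2.06% of all genes), Prdm14 and Mycn in both. On the DKO array 5 of 46 were higher than wild type, beside 1.39% of all genes. Against the Bmi1ΔIEC array 3 of 46 were higher there (2.83% of all genes), and against the Mel18ΔIEC array 3 (2.51%), in both cases Pax3, Irx2 and Dmrt2. No member was called lower in any of these 5 comparisons, where the shares of all genes called lower were 1.87%, 1.63%, 1.42%, 5.24% and 2.96% in this order. The 3 comparisons with wild type share that array, and the 3 with the double knockout share that one. Being higher than wild type on all 3 knockout arrays held for 2 of 46 members and for 0.28% of all genes, and in both members wild type lay at least 2-fold below each other array. The members were chosen with these results known, so the counts describe the set and are no test of it.

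For Prdm14, which was above the floor on all arrays, the DKO difference from wild type minus the sum of both single-knockout differences was -1.29 on the log2 scale, and 12.4% of all genes were at the floor on at least 1 array with a value at or under -1. Prdm14 and Mycn on the DKO array lay within 0.29 and 0.39 of either single-knockout array.

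**Figure D3:**
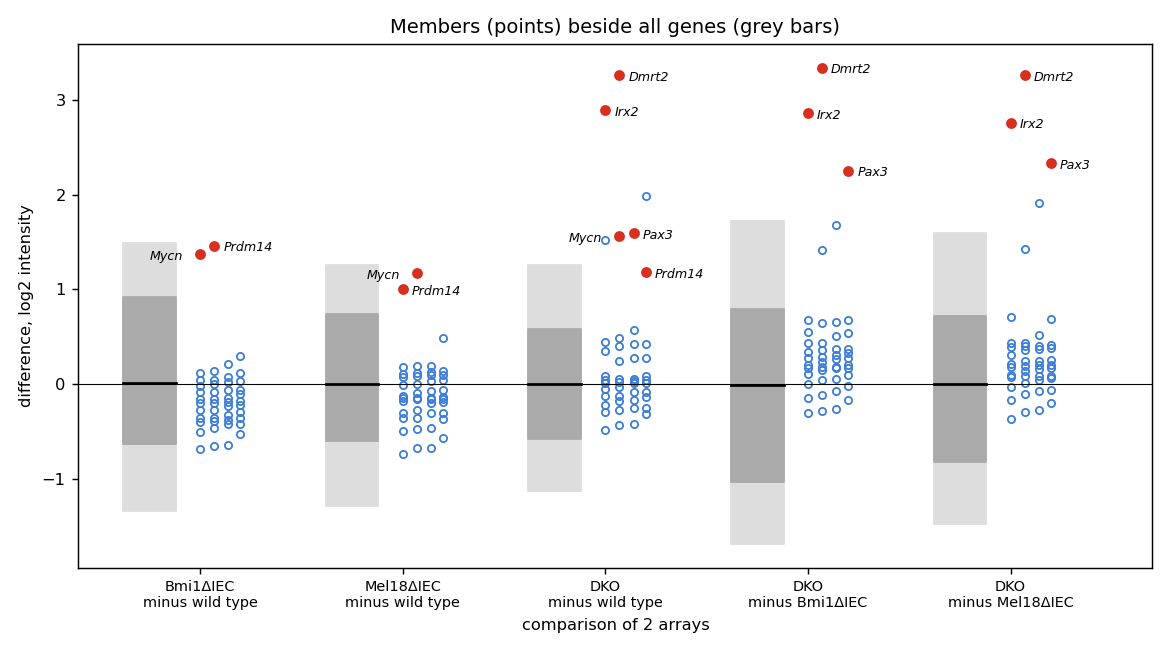
Difference in log2 intensity (vertical axis) for 5 comparisons of 2 arrays (horizontal axis). Each point is 1 of the 46 members, filled and named where it was called, and the grey bars beside them span percentiles 5 to 95 (dark) and 1 to 99 (light) of all 18193 genes with their median as a line; in the comparison of double knockout with wild type the named members lie between 1.18 and 3.26.

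Over the whole set, called members included, the median differences were small and had the sign seen in dim genes in general. Of the uncalled members, Lhx2 and Lhx8 were at least 2-fold above wild type in the double knockout, as given above. Over all 46 members, the median difference from wild type was -0.19 on the Bmi1ΔIEC array, -0.14 on the Mel18ΔIEC array and 0.03 on the DKO array, beside values within 0.0129 of 0 for all genes. Against the Bmi1ΔIEC array the double knockout lay above 0 for 38 of 46 members (82.6%, all genes 48.5%), and against the Mel18ΔIEC array for 37 (80.4%, all genes 49.0%). Among genes under the floor on all arrays the medians of these 2 comparisons were 0.23 and 0.19 for the 35 members and 0.11 for all 6039 such genes in each. Percentile 25 of all probe sets was 12.0 units in wild type, 11.1 on the Bmi1ΔIEC array, 11.3 on the Mel18ΔIEC array and 12.1 on the DKO array. What the background level contributes to these small shifts was not tested.

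The factors above the floor on every array differed less than 2-fold between any 2 arrays, apart from Prdm14. Nkx2-3, a homeodomain factor of gut mesenchyme and of vessels in gut lymphoid tissue, read 92.7 in wild type, 65.4 on the Bmi1ΔIEC array, 74.8 on the Mel18ΔIEC array and 79.7 on the DKO array. Wild type was highest, and the second Nkx2-3 probe set at the floor was flat, between 36.0 and 38.9. Pax8, known from thyroid and kidney, read 84.6, 64.3, 75.6 and 102, so that the DKO array was highest and the Bmi1ΔIEC array lowest, 0.67 apart.

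Pax9, a factor of pharyngeal pouch and tooth, read 44.6, 36.4, 34.8 and 45.8 in the order wild type, Bmi1, Mel18 and double knockout. The single-knockout arrays were the lower ones, by 0.30 and 0.36 from wild type. Six3, a forebrain and eye homeodomain factor, read 37.2, 35.5, 33.4 and 39.4, hardly above the floor anywhere.

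Six2 and Pax6 crossed the floor on the Mel18ΔIEC array alone, by a small margin. Six2, which keeps kidney progenitors undifferentiated, read 32.1 in wild type, 24.6 on the Bmi1ΔIEC array, 34.1 on the Mel18ΔIEC array and 26.4 on the DKO array. Pax6, an eye factor that is also active in hormone-producing cells of gut and pancreas, read 24.9, 21.2, 34.8 and 33.2. Its other 4 probe sets lay under the floor on all arrays, so neither gene gave a clear signal.

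In the families or parts of families that stayed under the floor, values lay low on every array. The T-box genes, which pattern limb, heart and somites, lay between 5.94 and 31.5, with Tbx5, a heart and forelimb factor, nearest to the floor at 31.3, 23.3, 27.4 and 31.5. DLX genes, homeodomain factors of forebrain, jaw and skin, lay between 7.59 and 32.2, with Dlx3 nearest at 32.0, 28.7, 20.1 and 32.2. LHX genes lay between 5.49 and 33.2. Nkx2-2, which is needed for enteroendocrine cells, read 24.8, 25.5, 22.7 and 25.1 and was flat. Pax5, the B cell identity factor, read 26.9, 17.2, 21.8 and 24.4, with the Bmi1ΔIEC array lowest. Of the other IRX genes Irx1 came closest to the floor, at 13.6, 11.9, 12.9 and 18.5, and Irx5 read 13.9, 11.5, 11.2 and 18.3. Both were highest on the DKO array, by 0.44 and 0.40 over wild type. In the DMRT family Dmrt3 came closest with 11.2, 12.3, 12.8 and 16.6.

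Many of these genes lie in pairs or clusters, and around Irx2 and Dmrt2 the neighbours were read as well. Irx1, Irx2 and Irx4 follow each other with no other protein-coding gene between them in the GRCm38.p6 gene table, as do Irx3, Irx5 and Irx6. The double knockout minus wild type difference was 0.44 for Irx1, 2.89 for Irx2 and -0.09 for Irx4, and only Irx2 reached the floor, so that the values of the others are not separated from background. In the cluster Dmrt1, Dmrt3 and Dmrt2 the differences were 0.35, 0.56 and 3.26, again with 1 gene above the floor. All 4 neighbours read around Dmrt2 were higher in the double knockout than in wild type, as were 49.1% of all genes. Of these neighbours Dmrt1 and Dmrt3 lay under the floor on all arrays. The other Dmrt3 probe sets differed by 0.0485, 0.0599 and -0.135. Beyond Dmrt2, Smarca2, a chromatin remodelling ATPase, differed by 0.72 (51.8 and 85.4), and Vldlr, a lipoprotein receptor, was called higher at 1.81 (97.0 in wild type and 339 in the double knockout). Pax3 lies between Epha4, at 0.00 from wild type, and Gm2102, at 0.09. None of the 4 nearest measured genes around Pax3, Irx2, Prdm14 or Mycn was called in any comparison.

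**Figure D4:**
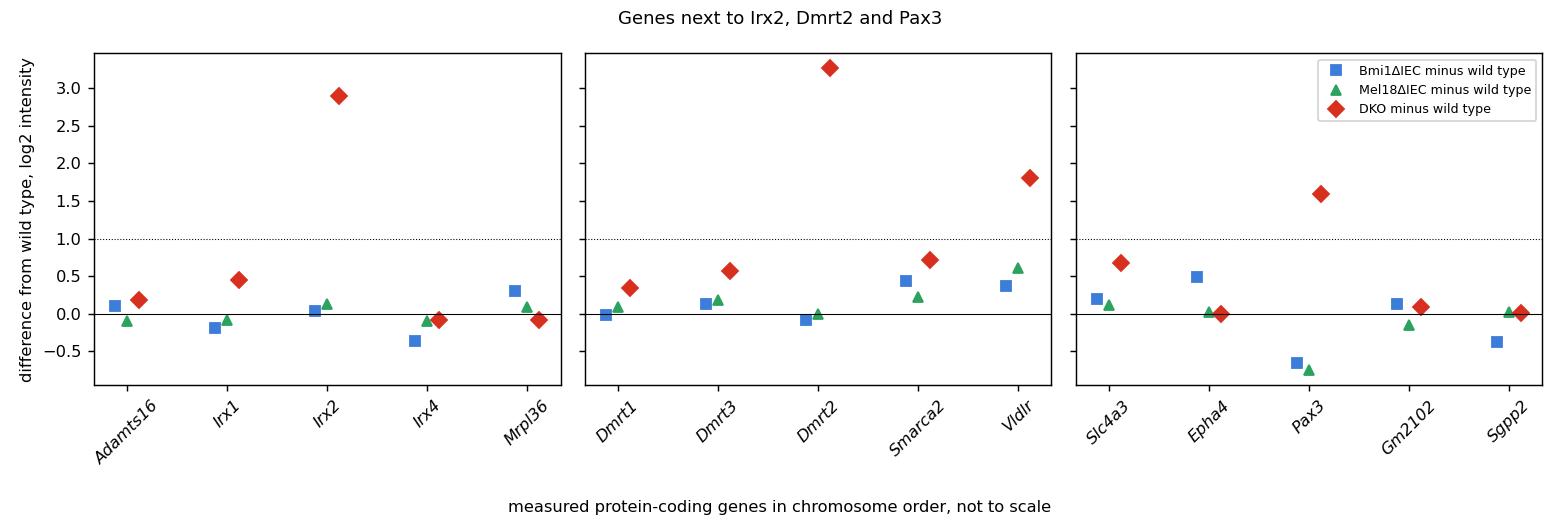
Difference from wild type in log2 intensity (vertical axis) for measured protein-coding genes in chromosome order around Irx2, Dmrt2 and Pax3 (horizontal axis, not to scale), with 1 marker for each knockout array and the 2-fold line dotted. Irx2 stands at 2.89 between Irx1 and Irx4, Dmrt2 at 3.26 next to Dmrt3 at 0.56, and Vldlr at 1.81.

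Polycomb complexes are known to gather on promoters rich in unmethylated CG dinucleotides, so the promoter sequences were read from RefSeq. Of the 46 members 31 matched the promoter table by symbol, with 37 promoters. The 250 bases before each start site are shown for the called members found there, Dmrt2, Irx2 and Mycn, and for contrast for the 2 members in the table with the lowest peak value, Tbx18 (at most 8.28 on any array) and Dlx1 (at most 10.5). Pax3 and Prdm14 had no entry. Letters are 5′ to 3′ on the gene's strand and capitals mark CG. In GRCm38.p6 the windows are chr19:25672161-25672410 (+) for Dmrt2, chr13:72628570-72628819 (+) for Irx2, chr12:12941837-12942086 (-) for Mycn, chr9:87731261-87731510 (-) for Tbx18 and chr2:71529195-71529444 (+) for Dlx1, each the flank before an annotated start site.
Dmrt2: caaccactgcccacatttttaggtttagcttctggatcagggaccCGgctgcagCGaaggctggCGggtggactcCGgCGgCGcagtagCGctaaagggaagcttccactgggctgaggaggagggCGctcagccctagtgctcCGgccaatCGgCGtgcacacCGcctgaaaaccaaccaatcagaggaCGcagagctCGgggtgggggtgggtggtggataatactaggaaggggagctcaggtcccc
Irx2: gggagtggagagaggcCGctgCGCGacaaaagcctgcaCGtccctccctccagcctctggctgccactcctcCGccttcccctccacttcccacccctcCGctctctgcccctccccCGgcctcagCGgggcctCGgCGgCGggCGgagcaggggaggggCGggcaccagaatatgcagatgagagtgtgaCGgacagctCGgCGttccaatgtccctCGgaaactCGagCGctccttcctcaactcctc
Mycn: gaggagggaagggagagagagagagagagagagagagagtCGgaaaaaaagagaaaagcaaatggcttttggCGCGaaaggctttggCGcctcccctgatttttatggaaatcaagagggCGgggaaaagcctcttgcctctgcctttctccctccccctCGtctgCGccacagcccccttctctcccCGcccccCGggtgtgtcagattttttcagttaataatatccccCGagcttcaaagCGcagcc
Tbx18: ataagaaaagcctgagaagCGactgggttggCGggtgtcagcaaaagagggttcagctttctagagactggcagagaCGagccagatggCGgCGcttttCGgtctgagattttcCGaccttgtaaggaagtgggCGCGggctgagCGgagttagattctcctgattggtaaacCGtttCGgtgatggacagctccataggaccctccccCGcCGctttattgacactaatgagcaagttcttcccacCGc
Dlx1: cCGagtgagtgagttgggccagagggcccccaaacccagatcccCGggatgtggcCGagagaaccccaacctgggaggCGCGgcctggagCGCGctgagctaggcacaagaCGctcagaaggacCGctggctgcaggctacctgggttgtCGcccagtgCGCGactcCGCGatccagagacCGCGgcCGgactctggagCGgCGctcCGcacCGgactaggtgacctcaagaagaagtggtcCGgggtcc

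Of the printed promoters, those of called and of dim genes overlapped in their count of CG. Dmrt2 had 14 CG in 250 bases, Irx2 19 and Mycn 11, while the dim Tbx18 had 15 and Dlx1 22. The observed over expected CG ratio was 0.587 for Dmrt2, 0.666 for Irx2, 0.586 for Mycn, 0.836 for Tbx18 and 0.764 for Dlx1, so that the 3 called genes lay below both dim ones in this ratio. Over the 27 promoters of the 22 matched members under the floor on all arrays the ratio ranged from 0.223 to 1.13 with a median of 0.665 and the count from 4 to 30 with a median of 14, and the called genes lay within both ranges. Over the 37 member promoters the count of CG ranged from 4 to 30 with a median of 14, beside a median of 12 for the 18109 promoters of genes on the array. CG-rich promoters, those with a ratio above 0.6 and more than 50% G and C, made up 54.1% of member promoters and 47.4% of promoters of genes on the array (30.8% of all 32851 promoters in the table). CG is its own reverse complement, so 1 count covers both strands. Lhx2, which stopped just short of the floor, had 25 and 24 CG in its 2 promoters, and Lhx8 had 4.

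**Figure D5:**
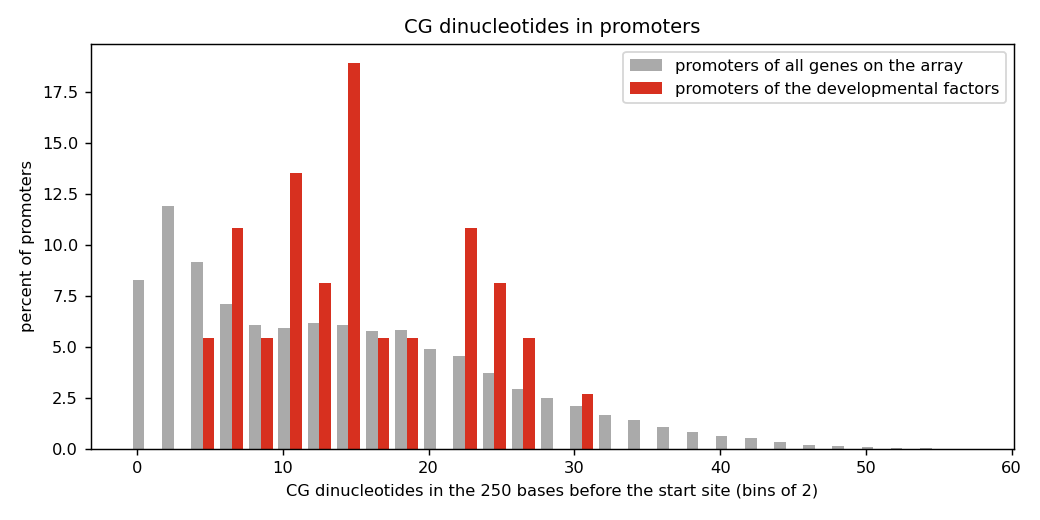
Percent of promoters (vertical axis) by the number of CG dinucleotides in the 250 bases before the start site (horizontal axis, bins of 2), for the 37 member promoters and the 18109 promoters of genes on the array. The member promoters lie between 4 and 30 CG, within the range of the others.

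Further developmental factors outside the set were read from a list of 124 measured genes. Of these 43 (34.7%, all genes 66.8%) reached the floor on at least 1 array, and 4 were called higher (1.39% of all genes) and none lower (1.42%) in the double knockout against wild type. Against the Bmi1ΔIEC array 3 of the 124 were higher and 5 lower in the double knockout (2.83% and 5.24% of all genes), and against the Mel18ΔIEC array 3 were higher and 4 lower (2.51% and 2.96%). Gata4, a factor of small-intestinal epithelium, read 21.0 in wild type, 19.9 on each single-knockout array and 85.6 in the double knockout. Dmrta2, a forebrain relative of Dmrt2, read 20.5, 25.2, 21.8 and 71.6, and Tfap2a, a neural crest and skin factor, read 28.1, 15.4, 18.2 and 90.8. These 3 stood at least 2-fold above each other array, and the other 3 arrays lay under the floor. Sox9, active in intestinal stem and Paneth cells, read 169, 314, 278 and 541. Of 10 factors of stomach and intestinal regional identity, a list chosen after the values were seen, Gata4 was the one called in the double knockout against wild type, and Sox2 and Barx1, which mark the stomach, lay under the floor on all arrays (4.36 to 8.55 and 23.0 to 30.4). Of the 124, 3 were called higher and 1 lower than wild type on the Bmi1ΔIEC array (3.78% and 1.87% of all genes). On the Mel18ΔIEC array 1 was higher and 1 lower (2.06% and 1.63%). Prdm16, a PR-domain relative of Prdm14, was higher on both. It read 28.4 in wild type, 134 and 85.6 on these arrays and 32.4 in the double knockout. Prdm1, another PR-domain gene, was lower on both, at 102, 33.2, 34.1 and 65.4 in the same order. The 5 lower in the double knockout than on the Bmi1ΔIEC array were Foxa2, an endoderm factor (-1.73 on the log2 scale), Prdm16 (-2.05), Mycl (-2.16), Myc (-1.23) and Nr2f2, a nuclear receptor (-1.07).

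Hox cluster genes are the best known Polycomb targets. Of 33 measured, 18 (54.5%, all genes 66.8%) reached the floor, and none was called higher in any of the 5 comparisons, where the share of all genes called higher lay between 1.39% and 3.78%. Called genes are too few at such shares to set 0 of 33 apart from all genes. Hoxd10, a gene of the posterior body, was called lower in the double knockout at 39.9, with 125 in wild type, 197 on the Bmi1ΔIEC array and 200 on the Mel18ΔIEC array. Against the Bmi1ΔIEC array Hoxa10 (88.8 and 195) and Hoxd11 (22.2 and 50.4) were also lower, so that 3 of 33 were, beside 5.24% of all genes. Of 39 Polycomb subunit genes 37 reached the floor. Apart from Bmi1 itself, Pcgf1, a paralog of Bmi1, was higher on the Bmi1ΔIEC array (69.4, wild type 30.2), Cbx8 on the Mel18ΔIEC array (63.0, wild type 28.7), and Kdm2b, which brings a Polycomb complex to CG-rich DNA, was lower in the double knockout (166, wild type 354). Of the 10 relatives and partners of Mycn, 1 was higher and 1 lower on the Bmi1ΔIEC array (3.78% and 1.87% of all genes). Mycl, a Myc paralog, read 170 against 56.4, and Mxd1, which opposes Myc at shared sites, 1060 against 2200. None of the 10 was called in the double knockout against wild type (1.39% of all genes higher, 1.42% lower). At such shares 0 of 10 does not set the list apart from all genes. Against the Bmi1ΔIEC array 1 was higher and 3 were lower (2.83% and 5.24% of all genes), and against the Mel18ΔIEC array 1 was lower (2.96%).

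Markers of other cells were read beside these results. Of all genes, 3.78% were called higher and 1.87% lower than wild type on the Bmi1ΔIEC array. These shares were 2.06% and 1.63% on the Mel18ΔIEC array, and 1.39% and 1.42% in the double knockout. In the double knockout 2.83% were higher and 5.24% lower than on the Bmi1ΔIEC array, and 2.51% and 2.96% than on the Mel18ΔIEC array. In bulk cells, fewer cells of a type and less RNA per cell cannot be told apart. Of 9 melanocyte markers, a list chosen after the Pax3 values were seen, none was called in any comparison: Tyr, Dct, Tyrp1 and Mlana stayed between 7.26 and 18.3 on all arrays, Pmel and Mitf were above the floor and flat (41.6 to 48.9 and 45.9 to 50.3), and the list summed to between 181.5 and 201.9. Of 11 skeletal muscle markers, chosen likewise, none was called, and Myod1, Myf5, Myog and Myf6 stayed between 4.20 and 19.0, while 3 reached the floor: Acta1 (71.9, 139, 110 and 97.4 in wild type, Bmi1ΔIEC, Mel18ΔIEC and DKO), Ckm (64.1 to 73.6) and Mylpf (29.8, 38.1, 36.4 and 45.1), with a sum of the list between 271.8 and 333.1. Of 8 skin markers, also chosen after the values were seen, 3 were called lower than wild type on each single-knockout array and 1 in the DKO. None was called higher than wild type. In the DKO 1 was called higher than on the Bmi1ΔIEC array, and 1 higher than on the Mel18ΔIEC array. The sums were 737.7 in wild type, 413.1 and 395.9 on the single-knockout arrays and 552.5 in the DKO. Of 13 enteroendocrine markers 11 reached the floor and 4 were called higher in the double knockout against wild type, among them Cck (13.1 and 68.2) and Chga (214 and 512). None was called lower there, but Tph1 (86.9 and 59.0) and Insl5 (1320 and 1030) read lower, and Neurod1 was flat (81.3 and 79.8). The summed intensity of the list was 4618 in wild type, 5796 and 5252 on the Bmi1ΔIEC and Mel18ΔIEC arrays, and 6404 in the double knockout. T and NK cell markers summed to 862.5, 628.7, 472.9 and 1726 in the same order. Of 10, 3 were higher in the DKO than in wild type, 4 than on the Bmi1ΔIEC array and 7 than on the Mel18ΔIEC array. Fibroblast markers summed to 5115, 2461, 5235 and 7595. Of 16, 6 were lower than wild type on the Bmi1ΔIEC array. In the DKO 1 was higher than wild type, 11 than on the Bmi1ΔIEC array and none than on the Mel18ΔIEC array. Proliferation markers summed to 5683, 4969, 3780 and 2368 (7 of 11 lower in the DKO than in wild type). Of the marker lists, that of neutrophils differed most between arrays, with sums of 2981 in wild type, 212.6 on the Bmi1ΔIEC array, 355.6 on the Mel18ΔIEC array and 2697 in the double knockout. Of 6, 3 were called lower than wild type on each single-knockout array (S100a8 read 935, 33.1, 93.4 and 851), 5 were higher in the double knockout than on each of these, and none was called in the double knockout against wild type. Macrophage and dendritic cell markers summed to 4117, 2721, 2490 and 4167, with 7 of 11 lower than wild type on the Bmi1ΔIEC array and 2 on the Mel18ΔIEC array. Both lists were thus low on the single-knockout arrays, in the comparisons that also enter the results for Pax3, Irx2, Dmrt2, Prdm14 and Mycn. The T and NK cell and fibroblast lists also differed in some of these comparisons, as given above. The part of any of these cells in the signal of the 5 factors was not tested. Stem cell markers summed to 884.6 in wild type, 1714 and 1306 on the Bmi1ΔIEC and Mel18ΔIEC arrays and 514.1 in the double knockout. The part of stem cells in the signal of Prdm14 and Mycn was not tested. Of the B and plasma cell markers 7 of 13 reached the floor, with sums of 5794, 4713, 5418 and 6460. Xbp1 alone made up most of each sum (4560, 3570, 4330 and 4370). Cd79a lay between 30.0 and 37.7 and Ms4a1 between 46.1 and 73.1, Jchain of antibody-secreting cells was called higher in the double knockout than on each other array (789, 786, 725 and 1690), and Pax5 stayed under the floor.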

How the data were processed

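Total RNA of colonic epithelial cells, 200 ng per array, was labelled and hybridised to Affymetrix Mouse 430 2.0 arrays. The authors deposited an intensity per probe set, which per the submitters' processing notes came from RMA in Affymetrix Expression Console. Versions are not given in the sources used here, nor is joint summarisation of the arrays. The values are on a linear scale, so log2 was taken with no pseudocount and no further scaling. Of 45037 probe sets 34945 had 1 gene symbol, 932 had several and 9160 were not listed in the platform annotation. Symbols of 34741 were brought up to date by gene ID through the GRCm38.p6 gene table. The probe set with the highest mean log2 value stood for its gene. The floor, percentile 50 of all values, and the 2-fold rule are sizes, not tests, and the call function was tested on simulated data. The text names every member at the floor on any array or called, the member nearest the floor in each family, and up to 4 called genes of other lists. Lhx2, Lhx8, Irx5, Foxa2, Myc, Nr2f2, Prdm1, Tph1, Insl5, Neurod1 and Xbp1 were added after their values were seen. So were the neighbours of the called genes and the genes named as undetected markers. Members and lists were chosen with earlier results of these data known. Alternatives covered probe sets, floor, scaling and fold. Python 3.11.15, numpy 2.4.6 and pandas 2.3.3 were used.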

Additional observations from a re-analysis of the deposited data

How the results depend on the processing

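Each choice was changed in turn, and under these alternatives no called difference of a member changed sign. Reading each gene by its second probe set was not among them. For Mycn that probe set differed from wild type by -0.3, -0.195 and -0.426 on the Bmi1ΔIEC, Mel18ΔIEC and DKO arrays, opposite in sign to the called one. With 1 array per genotype no array can be left out, and no paired analysis was possible because each genotype has 1 array. The number of members at the floor, 11, was 7 with the mean over probe sets and 1 with the floor at percentile 75 (136 units). Members higher than wild type numbered 1 with that mean and 1 at that floor on the Bmi1ΔIEC array (2 otherwise), and 1 with that mean, 0 at that floor and 1 after centring on genes above the floor on the Mel18ΔIEC array. At the floor of percentile 75 the 5 in the double knockout became 1 (Prdm14), the 3 against each single knockout became 0, and the 5 members set apart on 1 array became 0. With no floor the 3 against each single knockout became 5, by Lhx2 and Lhx8.

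Medians over the members at the floor on either array rest on few genes, some of which pass through their high array alone. The median against wild type on the Bmi1ΔIEC array was -0.18, and was 0.42 with the mean over probe sets, 1.46 at the higher floor and -0.53 with centring on the genes at the floor. On the Mel18ΔIEC array it was -0.03, and 0.19 with the mean over probe sets, -0.14 with no floor and -0.32 with that centring. In the double knockout it was 1.18, and 1.48 with the mean, 0.033 with no floor and 0.35 with that centring. Against the Bmi1ΔIEC array it was 0.33, and 1.08 with the mean, -0.29 at the higher floor and 0.67 with that centring. Against the Mel18ΔIEC array it was 0.39, and 0.21 with the mean, 0.20 with no floor, 0.17 at the higher floor and 0.56 with that centring. The causes of these shifts were not tested. Of the called genes, 66.8% were higher on the Bmi1ΔIEC array, 55.8% on the Mel18ΔIEC array and 49.4% in the double knockout as deposited, and 38.2%, 36.6% and 49.4% with that centring. For the DKO against the Bmi1ΔIEC and Mel18ΔIEC arrays these shares were 35.1% and 45.9%, and 61.4% and 62.8% with it. The median gene at the floor differed from wild type on the Bmi1ΔIEC array by 0.12 as deposited, 0.21 with centring on array medians and -0.11 with centring on genes above the floor.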
